A study of Caenorhabditis elegans with 2 samples.

Results

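The strongest nuclear promoter peaks recovered with the transcription factor TTX-3 lay at 7 listed protein-coding genes of Caenorhabditis elegans: K12H4.5, uncp-18, atx-2, ecps-1, M01F1.9, mlcd-1 and idhg-1. They were chosen from the authors' reproducible ("optimal") peak list as the genes whose promoter windows hold the nuclear summits of highest signal with no tRNA, snoRNA or snRNA gene within 100 bp, with tRNA synthetase genes left out. A promoter window took in the 1000 bp before and the 300 bp after the 5' end of each coding transcript. The 7 genes are 7 of 19985 annotated protein-coding genes and share 5 of the 700 optimal peaks, because atx-2 and ecps-1 share 1 peak and mlcd-1 and idhg-1 another. The peak of uncp-18 is shared with ears-2, a synthetase gene outside the list. Because pooled signal chose the genes, its values are given as a description and not tested.

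The data are chromatin immunoprecipitation and sequencing (ChIP-seq) of whole hermaphrodite late embryos, in 1 group of 2 biological replicates and with no second condition. All embryos came from strain OP68 (unc-119(ed3) III; wgIs68), which carries TTX-3 with a C-terminal GFP-FLAG tag, and were taken 4 hours after synchronization by egg bleaching; the immunoprecipitation used an antibody to GFP. Both replicates therefore carry the same transgene in an unc-119(ed3) background, and the chromatin of all embryonic cells was pooled in each. The lists record recovered DNA and no RNA, so the labelled stage could not be checked against marker genes.

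TTX-3 is a LIM homeodomain factor that acts as a terminal selector of the AIY interneurons. Homeodomain proteins of this class bind short A and T rich sites, and their targets in neurons are mostly genes of neuronal function. Those of the listed genes that have an annotated role encode proteins of membrane fusion, mRNA regulation, protein turnover and mitochondrial metabolism. In C. elegans many mRNAs receive a spliced leader by trans-splicing, so an annotated 5' end can lie downstream of the place where transcription starts.

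The sequences around the 5 summits are shown here because they hold words of 7 bases that recur between these peaks. Each is the plus strand of WBcel235 (ce11), 5′ to 3′, within 50 bp of the pooled summit, and the one at uncp-18 is trimmed where the ears-2 transcript begins. Capitals mark every 7-base word that occurs, on either strand, in 3 or more of the 5 full windows.
K12H4.5, chrIII:8043913-8044013: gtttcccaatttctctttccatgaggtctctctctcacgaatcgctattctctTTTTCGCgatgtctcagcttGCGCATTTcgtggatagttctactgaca
uncp-18 and ears-2, chrIV:390469-390552: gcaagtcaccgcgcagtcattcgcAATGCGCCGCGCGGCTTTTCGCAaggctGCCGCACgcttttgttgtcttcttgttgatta
atx-2 and ecps-1, chrIII:10461274-10461374: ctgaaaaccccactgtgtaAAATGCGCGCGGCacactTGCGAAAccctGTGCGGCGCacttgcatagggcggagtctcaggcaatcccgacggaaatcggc
M01F1.9, chrIII:3499964-3500064: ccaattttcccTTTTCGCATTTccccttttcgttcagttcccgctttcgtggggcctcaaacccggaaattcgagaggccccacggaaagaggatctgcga
mlcd-1 and idhg-1, chrIII:4568687-4568787: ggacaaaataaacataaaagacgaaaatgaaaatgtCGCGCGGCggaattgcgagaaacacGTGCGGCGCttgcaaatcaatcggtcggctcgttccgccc

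Signal is the strength that the authors' peak caller gave each region, on a scale without units. At these peaks the pooled value was close to the sum of the replicate values, with a ratio between 0.989 and 1.01. Of the 15 strongest nuclear optimal peaks, 10 had a tRNA, snoRNA or snRNA gene within 100 bp and the other 5 were those described here. Their pooled signals spanned a 1.99-fold range, and the next promoter peak was 1.17-fold weaker than the weakest of them.

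K12H4.5 had the strongest of the nuclear promoter peaks without a small RNA gene. Its pooled signal was 776, which ranked 3 in the optimal list. Its signal was 393 in replicate 1, where it ranked 6 among all 30000 regions, and 388 in replicate 2, where it ranked 1. The replicates differed by a factor of 1.01, and their summits lay 3 bp apart. K12H4.5 (WBGene00019680, III, 8044487 to 8044780, plus strand) is annotated by RefSeq as an uncharacterized protein, and the gene is 294 bp long. The peak (8043766 to 8044192) was intergenic, with its summit 524 bp upstream of the gene. On the other side, the 5' end of K12H4.6, which is also uncharacterized and runs away from the peak, was 1088 bp from the summit and so just outside the promoter window. The next gene downstream of K12H4.5 on its strand is spcs-3, a signal peptidase subunit gene, after a gap of 236 bp.

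uncp-18 (WBGene00020298, IV, 390560 to 393158, plus strand) is annotated as syntaxin-binding protein 1, a member of the family of Sec1/Munc18 proteins that act with SNAREs in membrane fusion. The pooled list gave its peak 494; replicate 1 had 262 and replicate 2 had 228, at summits 2 bp apart. Its region (390298 to 390657) spanned the whole gap of 91 bp between uncp-18 and ears-2, which encodes the mitochondrial glutamyl-tRNA synthetase and runs the other way. The summit was 58 bp upstream of uncp-18 and 34 bp upstream of ears-2, the closest of the 5 to any 5' end, so the peak cannot be assigned to one of these genes by position.

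**Figure D1:**
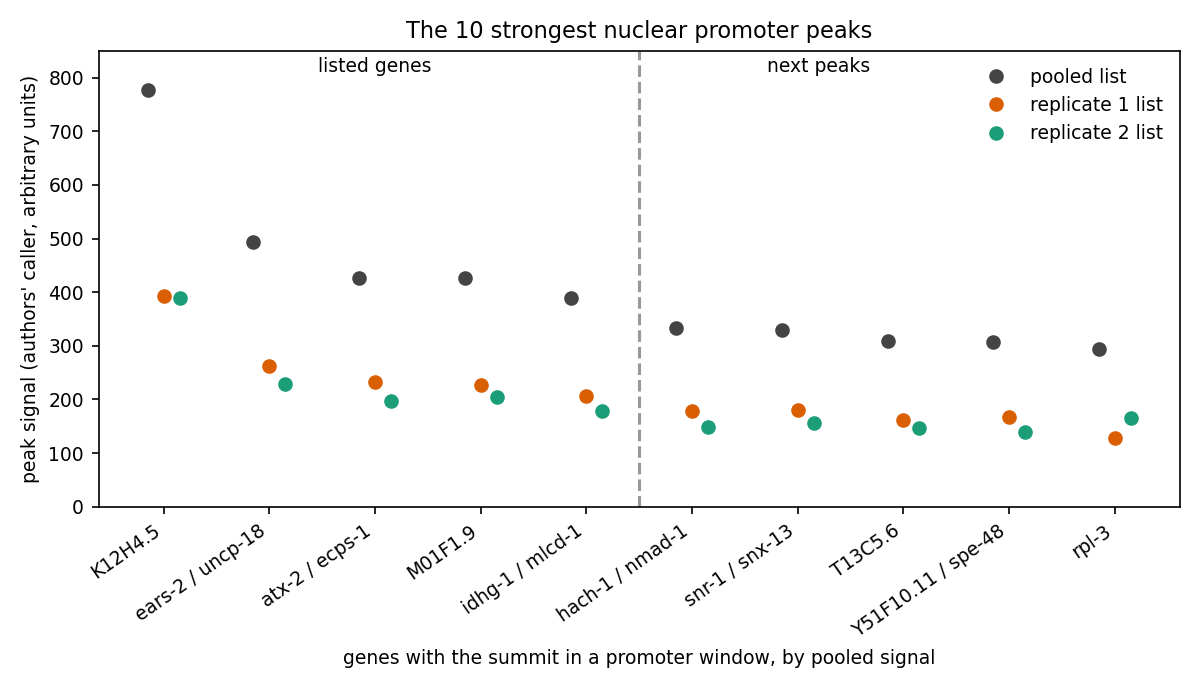
Peak signal of the 10 strongest nuclear promoter peaks, ordered by pooled signal, with the pooled list in grey, replicate 1 in orange and replicate 2 in green; 1 point is 1 value and there are no error bars. K12H4.5 stands at 776 pooled with 393 and 388 in the replicates, the other 4 listed peaks lie between 389 and 494 pooled, and the next 5 peaks between 295 and 333.

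At the peak shared by atx-2 and ecps-1 the pooled signal was 427, replicate 1 had 233 and replicate 2 had 196. atx-2 (WBGene00000231, III, 10461389 to 10468051, plus strand) encodes the ataxin-2 homolog, an RNA-binding regulator of translation, and ecps-1 (WBGene00008422, III, 10452753 to 10460551, minus strand) the worm relative of Ecm29, which in yeast is an adaptor of the proteasome. The genes diverge from a gap of 837 bp. The summit was 65 bp from the most upstream end of atx-2 and 773 bp from the end of ecps-1, so it lay at the atx-2 side of the gap. atx-2 has 4 annotated 5' ends, and the farthest was 3132 bp downstream of the summit.

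M01F1.9 (WBGene00010815, III, 3493814 to 3499057, minus strand) encodes a protein with an arrestin N-terminal domain, per RefSeq. Its peak (3499886 to 3500172) reached 426 in the pooled list, 227 in replicate 1 and 204 in replicate 2, and the replicate summits were 24 bp apart, the widest of the 5. The summit was 957 bp upstream of M01F1.9 and lay within M01F1.8, a gene on the same strand that ends 312 bp before M01F1.9 begins. Membership thus rests on a position near the far limit of the window, inside another gene, and no gene diverged from this summit.

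The peak shared by mlcd-1 and idhg-1 reached 389 in the pooled list, 207 in replicate 1 and 179 in replicate 2, and was the narrowest at 276 bp. mlcd-1 (WBGene00009439, III, 4566275 to 4568130, minus strand) encodes malonyl-CoA decarboxylase, which removes an inhibitor of fatty acid import into mitochondria. idhg-1 (WBGene00009440, III, 4568797 to 4571865, plus strand) encodes a subunit of the NAD-dependent isocitrate dehydrogenase of the citric acid cycle. The genes diverge from a gap of 666 bp, and the summit was 60 bp from the longer idhg-1 transcript and 607 bp from mlcd-1. The shorter idhg-1 transcript, like the RefSeq gene, begins 276 bp from the summit.

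All 5 peaks had a summit in both replicates within 100 bp, as did 330 of the 355 nuclear promoter peaks of the optimal list without a small RNA gene (93.0%). Since the authors made the optimal list from the same replicates, this count is a description. Signal was higher in replicate 1 at each of the 5, by 0.02 to 0.25 on the log2 scale. The other promoter peaks had a median of 0.17, with quartiles of -0.14 and 0.49, and 65.5% of those found in both replicates were higher in replicate 1, so the listed peaks leaned the way most peaks did. Both lists held the 5 as their 5 strongest nuclear promoter peaks, and only the order of M01F1.9 and the atx-2 peak changed between them. Pooled signal chose the 5 and was close to the sum of the replicates, so this order is a description too. None of the other 350 promoter peaks ranked among the top 25 regions of both replicates. The weakest listed peak ranked 24 in replicate 1 and 19 in replicate 2, and that of snr-1 and snx-13 ranked 30 and 26. This separation too follows largely from the choice by pooled signal.

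**Figure D2:**
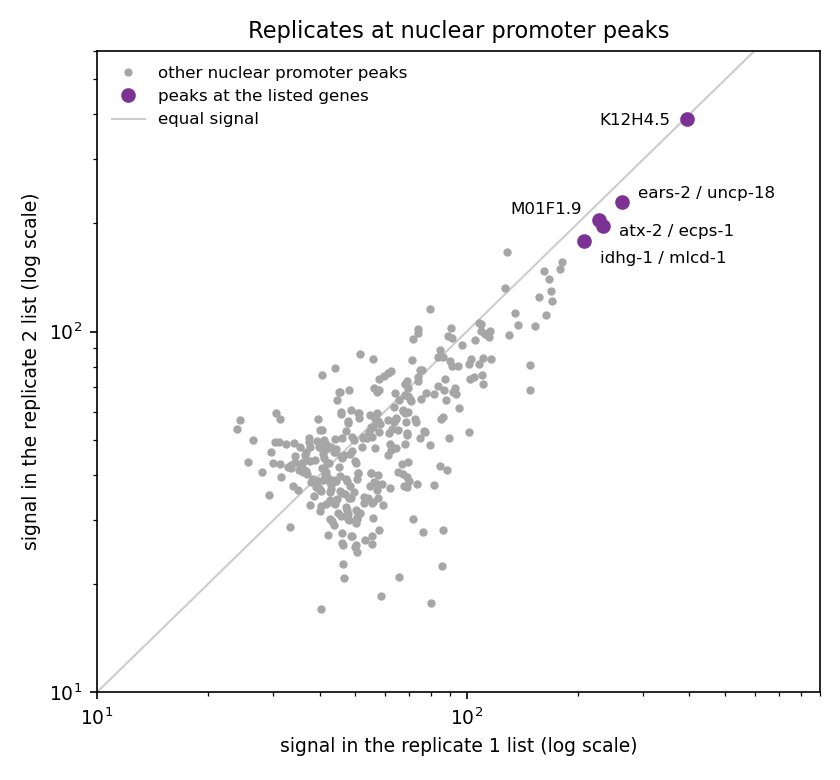
Signal in replicate 1 against replicate 2, both axes on a log scale, for nuclear promoter peaks found in both replicates; purple points are the 5 listed peaks, grey points the 325 others, and the line marks equal signal. The listed peaks sit at the upper end and close to the line, at 1.01 to 1.19 times more signal in replicate 1.

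The peaks just outside the list were weaker in the pooled list and in each replicate. The next was shared by the divergent genes hach-1 and nmad-1, with 333 in the pooled list, 178 in replicate 1 and 149 in replicate 2. hach-1 encodes a mitochondrial 3-hydroxyisobutyryl-CoA hydrolase, an enzyme of valine breakdown. The peak of snr-1, a core Sm protein gene of the spliceosome, and snx-13, a sorting nexin gene, followed with 329, and those of T13C5.6, of Y51F10.11 with spe-48, and of rpl-3 had 308, 307 and 295. The ribosomal protein gene rpl-3 was the exception in the balance of replicates, with 129 in replicate 1 and 166 in replicate 2. The median over all 355 promoter peaks was 98.4 and the lowest was 72.5.

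Apart from strength, the 5 peaks were set beside the other 350 nuclear promoter peaks. Divergent genes within 1000 bp flanked 3 of the 5 summits and 147 of the 350 (42.0%). Chromosome III carried 4 of the 5 and 69 of the 350 (19.7%). Regions were 276 to 427 bp wide at the listed peaks, while 90.9% of the others had the same width of 450 bp, a value that most weaker regions of the list share. Summits of the replicates lay 2 to 24 bp apart at the 5 and a median of 28 bp apart at the others. Distances to the nearest coding 5' end were 34, 60, 65, 524 and 957 bp, against a median of 190.5 bp for the others, so 3 of the 5 were nearer than the median and 2 farther. With 5 peaks none of these differences was tested, and width and summit distance vary with signal, which chose the peaks.

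In the wider region of each gene, from 2000 bp upstream of any 5' end to the gene end, each of the 7 genes held 1 optimal summit and no other. Of all 19985 protein-coding genes, 4.47% held an optimal summit in that region and 3.01% in the promoter window. Below the optimal threshold, the pooled list had 10 further summits in the 7 regions together, with signals from 20.3 to 45.4, at least 8.57-fold below the main peak of the same gene. Their deposited −log10 q-values were 0.088 to 0.309, against 1.51 at the main peaks. The pooled and replicate lists were deposited as peaks and background, so a weak summit in them need not be a binding site. A pooled summit of any strength was found in this region of 59.9% of all genes, so weak summits are common. M01F1.9 had 4 further pooled summits, atx-2 had 3, ecps-1, mlcd-1 and idhg-1 had 2 each, counting shared ones for both genes, and K12H4.5 and uncp-18 had none.

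Only 1 of the 10 further summits had a counterpart in both replicates within 100 bp. It lay inside idhg-1 near its 3' end, 2728 bp from the main summit, with a pooled signal of 45.4, 19.4 in replicate 1 and 23.2 in replicate 2. A pooled summit that both replicates share was present in the region of 26.3% of all genes. In the gap between atx-2 and ecps-1 a summit 567 bp from the main one had a pooled signal of 20.3; replicate 2 listed it at 39.0, rank 685, and replicate 1 had none. Inside M01F1.9, 3 weak pooled summits of 20.8 to 23.8 each had a counterpart within 100 bp in 1 replicate. mlcd-1 had a pooled summit of 23.8 near its 3' end with a counterpart of 14.8 in replicate 1. Replicate 2 had a summit of 16.0 further inside mlcd-1, beyond 100 bp, in a region that takes in the pooled summit. uncp-18 had a weak summit in its gene body in each replicate, 21.5 in replicate 1 and 16.4 in replicate 2, at different places.

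Several of the weak summits stood at a fixed distance from the main one. In the pooled list they were 200 bp away at the mlcd-1 and idhg-1 peak (signal 36.1), 203 bp at M01F1.9 (43.3) and 207 bp at atx-2 (23.4). Replicate 1 had them at 200 bp from the pooled summit of K12H4.5 (28.0) and 211 bp from that of uncp-18 (21.5). Counted in the same way, it also had them at 209 bp at mlcd-1 and idhg-1 (24.65) and 223 bp at M01F1.9 (44.5), but not at atx-2. At these 2 peaks the main summit of replicate 1 itself lay 5 and 24 bp from the pooled one, on the same side. Replicate 2 had none at any of the 5. No pooled summit was closer than 199 bp to any nuclear optimal summit, and 42.4% of the 689 nuclear optimal summits had one 199 to 225 bp away. The spacing over all optimal summits was counted in the pooled list alone. The pooled ones at this distance are included in the counts of further summits above, but none was taken as a second site of a listed gene.

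**Figure D3:**
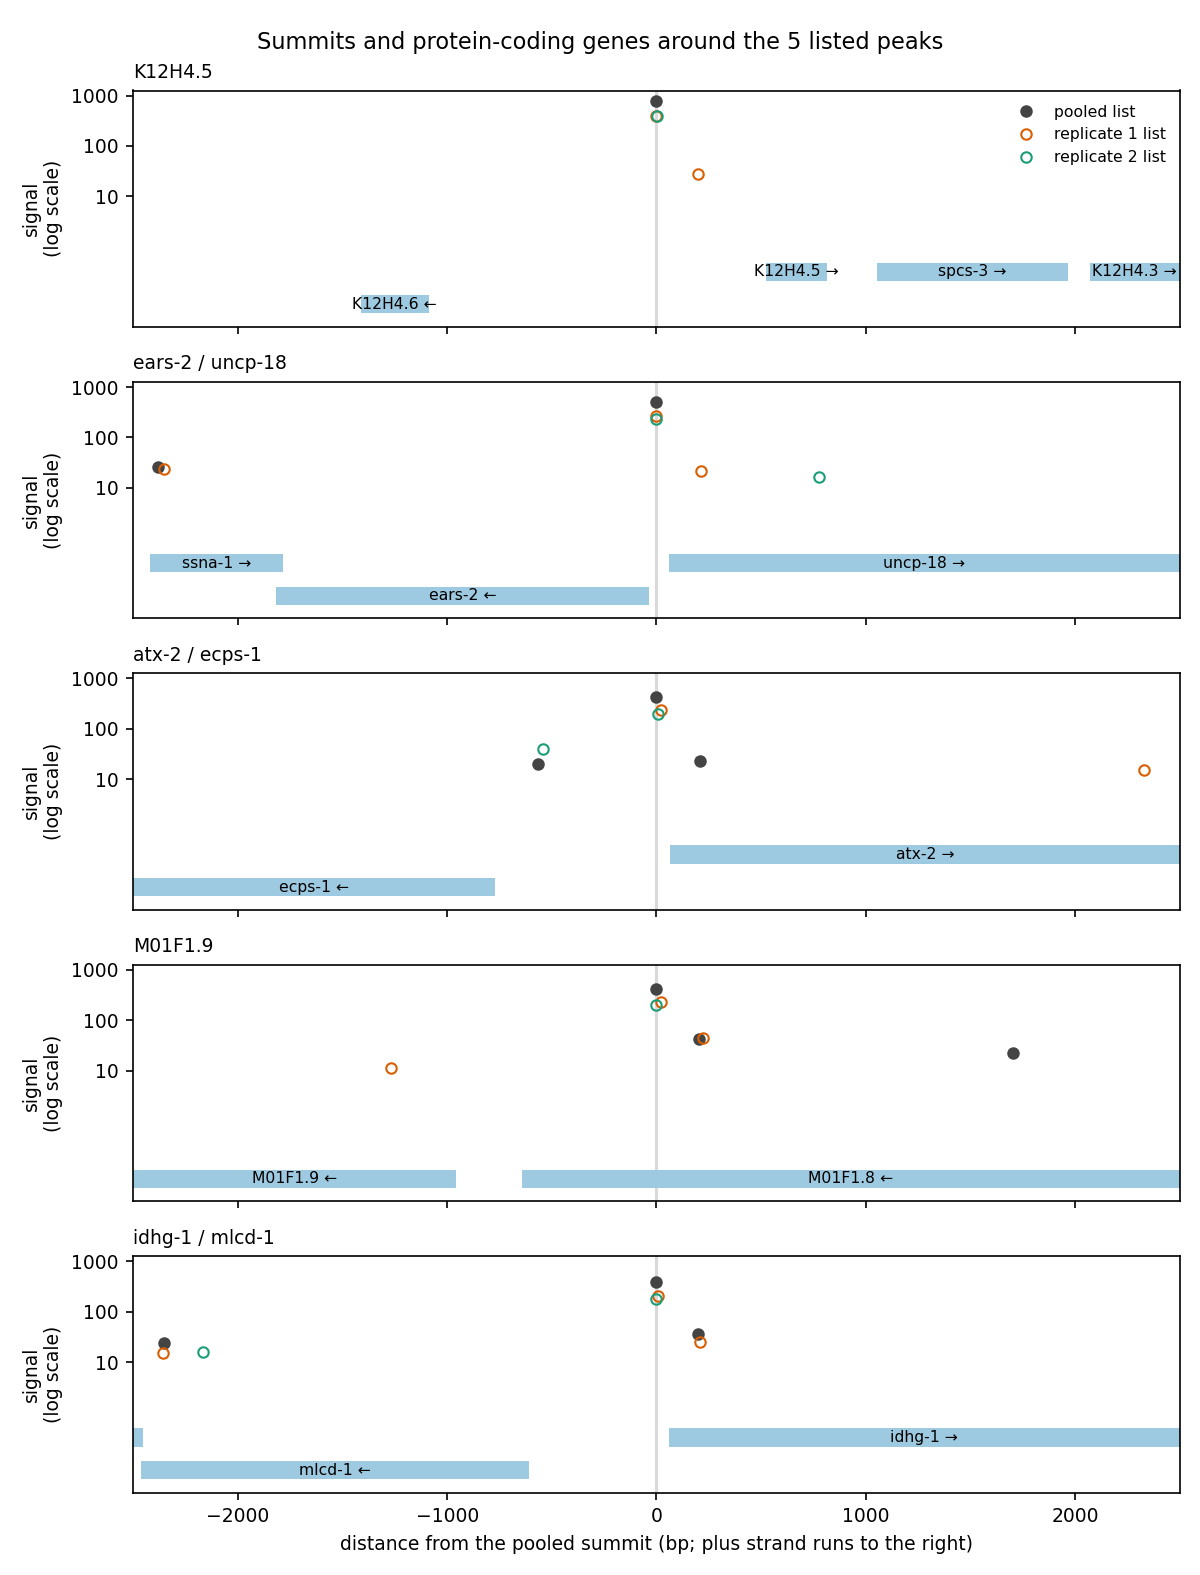
Summits within 2500 bp of the 5 listed peaks, by distance from the pooled summit in bp, with signal on a log scale; filled grey points are the pooled list, orange circles replicate 1 and green circles replicate 2, and blue bars are protein-coding genes with arrows for their strand. Each peak stands within 24 bp of 0 in all 3 lists, flanked by summits with signals under 50. Divergent genes with 5' ends within 1000 bp flank 3 of the 5.

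**Figure D4:**
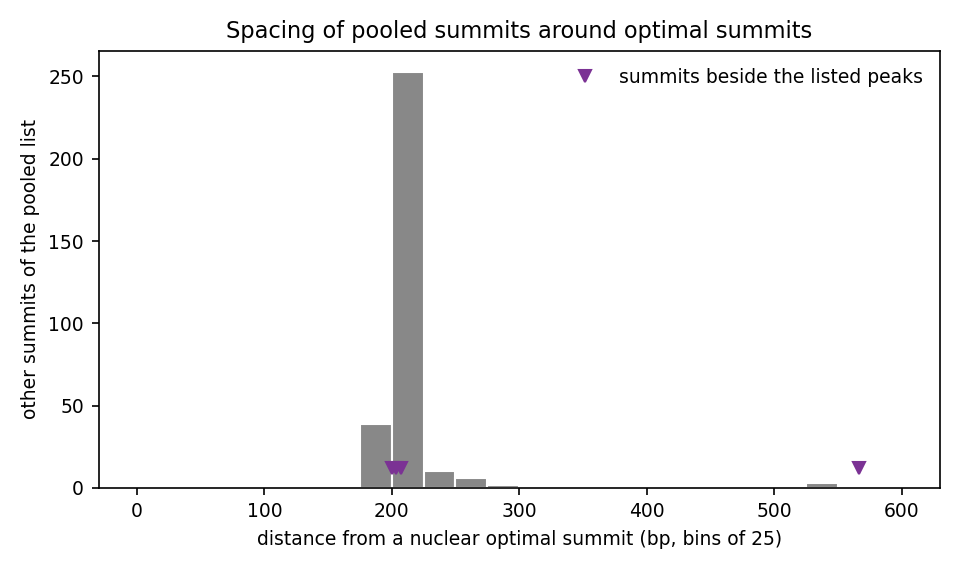
Number of other pooled summits by distance in bp from a nuclear optimal summit, in bins of 25 bp; triangles mark the distances of pooled summits beside the listed peaks and their height has no meaning. Bars rise at 199 bp and fall after 225 bp, and 3 of the 4 triangles lie there.

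G and C made up 44.6% of the window at K12H4.5 and 50.5% at mlcd-1 and idhg-1. They made up 53.5% at M01F1.9, 57.4% at uncp-18 and 59.4% at atx-2. The median of the other promoter peaks was 46.5%, above K12H4.5 and below the rest of the listed peaks. That of 14941 weak pooled summits was 31.7%, below all of them. Motifs were searched on both strands within 50 bp of the summit, and a match is a description of letters. TAATTA, the core site of LIM homeodomain proteins, was in none of the 5 windows, in 6.0% of the other promoter windows and in 6.69% of the weak ones. GTTCGA, part of the internal promoter of tRNA genes, was in none of the 5 and in 4.57% of the other promoter windows. Both sets leave out summits with a tRNA gene within 100 bp, so a low share follows from their choice. Over all nuclear optimal peaks it was 15.7%. GCGCAC was found at atx-2 alone of the 5 and at 20.9% of the others. The E box CACGTG was found at mlcd-1 and idhg-1 alone, 8 bp from the summit, and at 1.43% of the others. CCAAT was found at K12H4.5 and M01F1.9 and at 16.0% of the others, and GAGAGA at K12H4.5, in 3 overlapping copies, and at 11.1% of the others.

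The words in capitals above fell in 2 groups. The first group had 4 words of G and C with at most 1 A. It was in the 3 windows flanked by divergent genes within 1000 bp (uncp-18, atx-2 and mlcd-1 with idhg-1) and in neither of the others. K12H4.5 also has a gene running the other way, K12H4.6, but at 1088 bp it falls just past that limit. In the first group, the word GCGCCGC was in 7.43% of the other promoter windows and 0.422% of the weak ones, and GCCGCAC was in 11.4% and 0.817%. For the overlapping words GCCGCGC these shares were 4.57% and 0.348%, and for CCGCGCG they were 2.29% and 0.274%. The second group had 4 words with a run of A, and each was in 3 windows that included K12H4.5 or M01F1.9. Of the other promoter windows, 8.29% held AAATGCG and 8.0% its overlapping word AATGCGC, while 8.86% held TGCGAAA and 8.29% GCGAAAA. The words were picked because the listed windows share them, so their count of 3 is no evidence; words of G and C are also more frequent in windows of this composition. Among the 206 other promoter windows within the same GC range, 31 held GCCGCAC and 23 held GCGCCGC. In the 20 next strongest promoter peaks, which had no part in the choice of words, GCCGCAC was in 8 windows, CCGCGCG in 3, GCCGCGC in 2 and GCGCCGC in 1. Of the second group, AATGCGC was in 4 of these 20 windows, TGCGAAA in 3, and AAATGCG and GCGAAAA in 1 each.

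Longer words were shared by pairs of windows. Those of atx-2 and of mlcd-1 with idhg-1 both held CGCGCGGC followed on the same strand by GTGCGGCGC, 24 bp further at atx-2 and 25 bp at idhg-1, counted from start to start. The uncp-18 window also held CGCGCGGC, and it shared words of 9 bases with the windows of atx-2, M01F1.9 and idhg-1. These words were picked because the windows share them, so their presence in a pair is no evidence of a common arrangement. GTGCGGCGC by itself was in 13 of the other promoter windows (3.71%) and in 0.0602% of the weak ones. The M01F1.9 window held an inverted repeat whose arms of 11 bases, CGTGGGGCCTC and GAGGCCCCACG, were separated by 16 bp. The longest perfect arms were 9 bases in the full window at uncp-18, 7 at mlcd-1 and idhg-1 and 6 at K12H4.5, and atx-2 had none of 6 or more. Perfect arms of at least 11 bases, a length set by the M01F1.9 repeat, were in 2.0% of the other promoter windows and in 3.22% of the weak windows.

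Genes that work with the listed ones were examined in 5 lists, and summits were sought in the same region from 2000 bp upstream to the gene end. Without the listed genes themselves, 7 of 83 genes had an optimal summit, beside 4.47% of all genes. In the citric acid cycle list, 2 of 22 did: dlst-1 and dld-1, which encode components of the 2-oxoglutarate dehydrogenase complex. The dlst-1 peak reached 114.7 in the pooled list (55.7 and 54.4 in replicates 1 and 2). The dld-1 peak, in a window shared with nspg-9, reached 79.2 (24.4 and 57.0). None of the other isocitrate dehydrogenase genes had an optimal summit, nor did any of 13 genes of malonyl-CoA and fatty acid metabolism. In the list of vesicle fusion genes, 1 of 16 had one: nsf-1, the ATPase that takes SNARE complexes apart, at 104.5 (47.7 and 56.4), in a window shared with adr-1. unc-18 had none.

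Among the cytoplasmic mRNA regulators listed with ataxin-2, 3 of 18 genes had an optimal summit. That of larp-1, which encodes a La-related RNA-binding protein, had a pooled signal of 120 (63.7 in replicate 1 and 56.0 in replicate 2). It lay in a window shared with wip-1. That of ifet-1, an eIF4E-binding translational repressor gene, had 98.6, with 51.4 in replicate 1 and none in replicate 2, and lay in a window shared with the ribosomal protein gene rps-1. That of ife-3, a cap-binding protein gene, had 90.8 (46.6 and 45.5) and lay 1136 bp upstream, in the promoter window of B0348.10. In the proteasome list, 1 of 14 had one: rpt-6, at 77.6, with no counterpart in replicate 1, 48.2 in replicate 2, and a summit 1785 bp upstream in the window of his-72. The strongest of these 7, larp-1, was 3.24-fold weaker than the weakest of the 5 peaks.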

How the data were processed

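The authors deposited peak lists on ce10 and ce11. The deposited file descriptions say that a replicate's list comes from its own alignments and a control, the pooled list from both replicates, and the optimal list from these by an irreproducible discovery rate (IDR) filter. No caller, aligner, version or filter cutoff is given in the sources used here. The authors deposited a signal for each region, with no stated scale between lists, and −log10 of a q-value, which was 1.51 at each of the 5 peaks in the optimal list. The lists hold no read counts, so the depth behind a value is unknown. The control and the ce10 lists were not analysed here.

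Positions are on ce11 (WBcel235), with genes from Ensembl release 115, product names from RefSeq and sequences from the RefSeq genome. Of genes without a name, 2758 received the RefSeq symbol at the same coordinates. Summits of different lists counted as the same within 100 bp. Weak summits were those of pooled rank above 15000 that overlap no optimal peak. Members, lists and motifs were chosen with earlier results of these data known, and the shared words and repeats after seeing the windows. Named were the 7 genes, those sharing or flanking their peaks, and the genes at the 5 next peaks. List members with an optimal summit, and the genes whose promoter windows hold it, were also named. After their values were seen, unc-18 and the weak summits were named. The lists held 90 names, of which sdhc-1 and tiar-3 were not found. No test was made, since signal chose the members and there is 1 group. Summit and word searches were tested on simulated data. Python 3.11.15, numpy 2.4.6, pandas 2.3.3 and matplotlib 3.10.9 were used.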

Additional observations from a re-analysis of the deposited data

How the results depend on the processing

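The 5 listed peaks stayed the 5 strongest nuclear promoter peaks when the distance to a small RNA gene was raised to 250 bp, when any noncoding RNA gene within 100 bp was left out, and in each replicate alone. A stricter RNA filter can only remove peaks. Pooled signal chose the 5 and was close to the sum of the replicates, so the order in each replicate is not independent of the choice. All 5 had a counterpart in both replicates within 50 bp, within 200 bp and by overlap of regions. All 5 were among the stronger 350 optimal peaks, which follows from their choice by pooled signal. The weakest of the 5 ranked 20 in the pooled list, and 19 to 24 in the single replicates. Pooled summits in the 7 regions numbered 15, and 8 in the promoter windows alone, which are shorter; with 1000 bp upstream there were 14. Leaving out a replicate gave 11 to 18. Over all genes, 893 had an optimal summit in the region and 447 with the stronger 350 peaks, which are fewer by construction. No paired analysis was possible because there is 1 group. Each replicate list holds 30000 regions, so a summit missing from it may be weaker than its last region and need not be absent. Without read counts the depth is unknown.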
